A study of Homo sapiens with 28 samples.

Results

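The regions described here are the normoxia-only ZHX2 peaks of T47D cells, that is, peaks of the deposited normoxia ZHX2 list on chromosomes 1 to 22 and X that share not even 1 bp with a peak of the hypoxia ZHX2 list. There were 5462 of them among 14586 normoxia ZHX2 peaks (37.4%), and the other 9124 peaks are called shared. The hypoxia list held 32343 peaks. These peaks were chosen by the absence of an overlapping hypoxia ZHX2 call, a measured value, so the number of normoxia-only peaks, their width, their strength and their distance from hypoxia peaks are given as descriptions without a test. Absence from the hypoxia list says that no peak was called there, not that ZHX2 was missing from the site.

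Chromatin immunoprecipitation followed by sequencing was applied to T47D cells, a long-established human line of luminal breast cancer, with antibodies to ZHX2, CTCF and acetylated lysine 27 of histone H3 (H3K27ac), each in normoxia and in hypoxia. The 2 Flag lists used here come from hypoxia, with ZHX2 labelled WT or PA; hypoxic cells were fixed inside the chamber. The design text calls PA a mutation and the labels do not say which residues it changes. The oxygen level and the length of hypoxia are not in the labels. Each of the 8 immunoprecipitated groups had 2 samples but 1 deposited peak list, so no value below has a replicate check, no p-value between conditions is given, and the sequencing depth behind a peak is unknown. The protocol describes lentiviral infection and drug selection of T47D in general terms without tying it to single samples. H3K27ac peaks of the normoxia list lay at the gene ends of 6 of 6 luminal markers (ESR1, FOXA1, GATA3, KRT8, KRT18, KRT19) and of 0 of 3 basal markers. They also lay at 1 of 4 immune markers (CD3E) and 1 of 4 stromal markers (COL1A1).

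ZHX2 belongs to the zinc fingers and homeoboxes family, whose members combine zinc fingers with homeodomains and act as transcriptional regulators; in some settings ZHX2 is a target of the oxygen-dependent VHL ubiquitin ligase. CTCF is a zinc finger protein that binds a long GC-rich motif and, with cohesin, anchors chromatin loops and domain borders. H3K27ac marks active promoters and enhancers, so overlap with its broad peaks separates active regulatory chromatin from the rest of the genome.

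Some normoxia-only peaks covered gene starts, and the sequence there shows the 2 settings in which they occurred. For 3 promoters whose normoxia-only peak overlapped no H3K27ac peak in either condition, and 3 whose peak overlapped one, the 120 bases just before the annotated start are printed 5′ to 3′ on the gene's strand from RefSeq, GRCh38.p14. Capitals mark CpG dinucleotides. These are among the strongest peaks of each kind, by the authors' fold, that cover at least 200 bases of a window in the RefSeq promoter table and whose printed bases lie in no annotated gene; they were chosen after their values were seen. The bases lie at chr7:103989659-103989778 (minus strand) for RELN, chr22:50058299-50058418 (minus strand) for TTLL8 and chr21:44350021-44350140 (plus strand) for TRPM2. Those with H3K27ac lie at chr1:26279966-26280085 (plus strand) for SH3BGRL3, chr2:3575140-3575259 (plus strand) for RPS7 and chr12:110450338-110450457 (minus strand) for ARPC3.
RELN: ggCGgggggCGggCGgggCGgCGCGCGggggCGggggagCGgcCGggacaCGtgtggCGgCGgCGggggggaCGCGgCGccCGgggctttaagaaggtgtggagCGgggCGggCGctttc
TTLL8: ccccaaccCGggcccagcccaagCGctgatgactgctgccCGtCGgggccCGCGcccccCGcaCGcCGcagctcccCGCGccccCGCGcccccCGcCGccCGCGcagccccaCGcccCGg
TRPM2: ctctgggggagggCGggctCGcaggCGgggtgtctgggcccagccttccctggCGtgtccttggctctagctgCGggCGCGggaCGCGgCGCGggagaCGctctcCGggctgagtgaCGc
SH3BGRL3: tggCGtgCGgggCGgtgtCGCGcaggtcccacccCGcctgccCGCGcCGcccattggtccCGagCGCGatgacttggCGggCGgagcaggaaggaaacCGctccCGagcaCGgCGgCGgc
RPS7: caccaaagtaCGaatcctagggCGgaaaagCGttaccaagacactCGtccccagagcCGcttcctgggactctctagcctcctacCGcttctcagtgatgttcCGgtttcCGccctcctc
ARPC3: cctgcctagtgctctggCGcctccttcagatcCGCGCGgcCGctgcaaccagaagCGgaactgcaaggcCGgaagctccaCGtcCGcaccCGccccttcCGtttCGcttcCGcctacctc
RELN encodes reelin, a secreted matrix protein that guides migrating neurons, TTLL8 a tubulin-modifying enzyme and TRPM2 a calcium-permeable channel. RPS7 is a protein of the small ribosomal subunit and ARPC3 a subunit of the actin-nucleating Arp2/3 complex. The RELN stretch held 21 CpGs and the TTLL8 stretch 19, against 8 in the RPS7 stretch, and SH3BGRL3 held 19. Dense CpGs were therefore present on both sides of the H3K27ac split. The RELN peak overlapped CTCF peaks in both conditions and no Flag peak, while the TTLL8 and TRPM2 peaks overlapped none of the 6 other lists.

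Over all promoters, normoxia-only peaks overlapped 258 of 22132 RefSeq windows of protein-coding genes (250 bases before to 50 after a start). The GC content of these windows had a median of 69.7%, against 62.3% over all windows and 69.7% at shared peaks. They held a median of 30 CpGs, against 21 over all windows and 32 at shared peaks. By GC content and CpGs, the promoters at normoxia-only peaks were thus close to those at shared peaks. Of the motifs searched on both strands, ACGTG was in 27.9% of the windows at normoxia-only peaks and 23.1% of all windows, and GCGTG in 53.9% and 43.0%. CACGTG, which contains ACGTG, was in 13.6% and 8.34%, TATAAA in 3.88% and 9.46%, and CCAAT in 34.5% and 34.6%. The CTCF core motif was in 1 of the 258 windows and in 18 of all windows. At shared peaks the shares were 28.3% for ACGTG, 56.9% for GCGTG, 11.2% for CACGTG, 3.72% for TATAAA and 29.3% for CCAAT.

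The 258 windows were split by H3K27ac, after the data were seen. At 157 windows (147 genes) the normoxia-only peak overlapped H3K27ac in at least 1 condition, and at 101 windows (96 genes) it did not. Median GC was 69.7% in the first group and 70.3% in the second, with medians of 31 and 28 CpGs. CCAAT was in 38.9% and 27.7% of the windows, GCGTG in 56.7% and 49.5%, and CACGTG in 11.5% and 16.8%. Of the 137 peaks in the first group, 67.2% overlapped a normoxia CTCF peak and 83.9% a WT Flag peak; of the 96 peaks in the second, 16.7% and 10.4% did. The median fold was 3.28 in the first group and 3.51 in the second. Factors of the developmental families in the second group were FOXR1, GSX1, IRX1, LHX3, TBX21 and ZIC1, and in the first GATA3 and PAX6.

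The strength of a peak is given by the authors' fold, the enrichment over background that the peak caller wrote for it, and by its −log10 q; both are the authors' values and are used only to rank peaks within the normoxia list. Normoxia-only peaks were weak and narrow. Their median fold was 3.14 (quartiles 2.80 and 3.55), against 3.54 for shared peaks, their median −log10 q was 4.76 against 7.68, and their median width was 245 bp against 368 bp. When the normoxia list was cut into deciles by score, 58.8% of the lowest decile and 7.33% of the highest were normoxia-only. The share was lower in each decile than in the one below it.

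Most normoxia-only peaks lay 1 kb or more from any hypoxia ZHX2 peak. The median distance to the nearest one was 14706.5 bp. There were 931 within 1 kb (17.0%), 1425 at 1 to 10 kb, 2416 at 10 to 100 kb and 690 at 100 kb or more. At the border of the rule, 138 peaks stopped within 100 bp of a hypoxia peak and had a median fold of 3.06 and a median width of 253 bp. The 257 peaks that overlapped a hypoxia peak by 1 to 100 bp had 3.17 and 261 bp. The 2 sets bordering the rule were therefore alike in strength and width.

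The distance went with the kind of site. Within 1 kb of a hypoxia peak, 37.8% of normoxia-only peaks were at a gene end, 56.6% overlapped a normoxia H3K27ac peak and 38.3% a WT Flag peak. At 1 to 10 kb these shares were 13.1%, 24.6% and 11.02%. At 10 to 100 kb they were 9.31%, 9.89% and 4.88%, and at 100 kb or more 6.38%, 7.68% and 2.03%. The median fold ranged from 3.09 to 3.18 over the 4 bins and the median −log10 q from 4.43 to 4.98, lowest in the farthest bin.

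**Figure D1:**
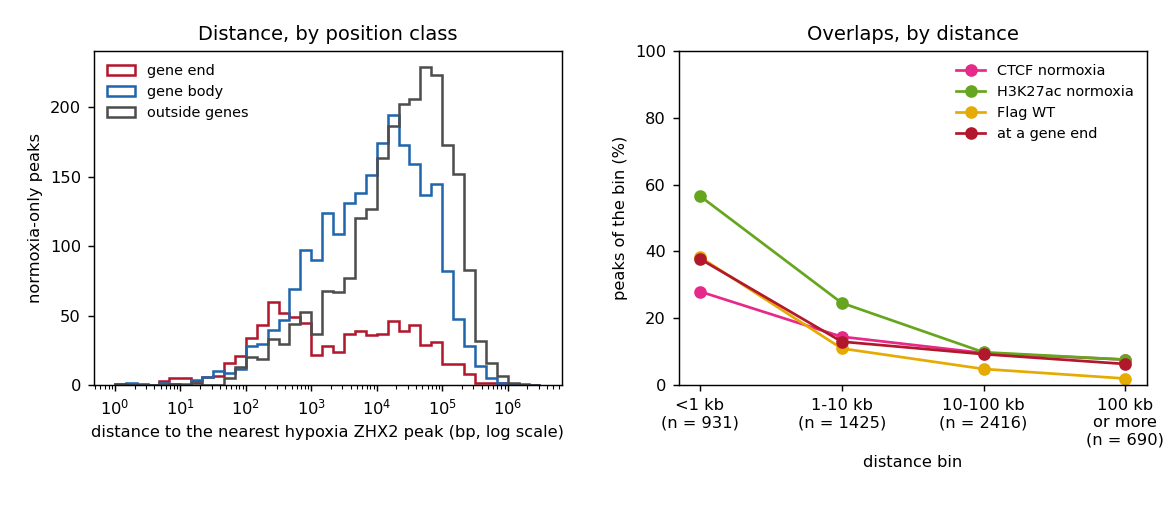
Left, number of normoxia-only ZHX2 peaks (y axis) by distance in bp to the nearest hypoxia ZHX2 peak (x axis, log scale), 1 line per position class. Right, percent of the peaks of each distance bin (y axis) that overlap the normoxia CTCF, normoxia H3K27ac or WT Flag list or lie at a gene end; all 4 lines fall from the nearest bin to the farthest, H3K27ac from 56.6% to 7.68%.

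Normoxia-only peaks were mostly away from gene ends. A gene end here is 1 kb around either annotated end of a protein-coding gene, and a gene body is the rest of such a gene. Of the normoxia-only peaks, 807 were at gene ends (14.8%, 95% Wilson interval 13.9 to 15.7), 2263 in gene bodies (41.4%, 40.1 to 42.7) and 2392 outside protein-coding genes (43.8%, 42.5 to 45.1). Over the whole normoxia list the shares were 40.6% at gene ends, 31.1% in gene bodies and 28.3% outside. Of the shared peaks, 56.1% (55.1 to 57.1) were at gene ends, 24.9% in gene bodies and 19.0% outside. With gene ends and bodies taken from all annotated genes rather than protein-coding ones, 24.95% of normoxia-only peaks were at gene ends, 46.3% in gene bodies and 28.8% outside. The intervals of normoxia-only and shared peaks, over protein-coding genes, did not overlap in any of the 3 classes; they cover counting error alone, and neighbouring peaks are not independent.

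At gene ends, strand could be read from the promoter table for 15812 of 19974 protein-coding genes. Of the 807 gene-end peaks, 427 were at a start (52.9%), 139 at a stop (17.2%), 39 at both and 202 at a gene of unmatched strand. For shared peaks, 68.4% were at a start and 4.16% at a stop. Normoxia-only peaks at starts overlapped normoxia H3K27ac in 59.3% of cases and WT Flag in 51.8%, and those at stops in 25.2% and 15.8%. At shared starts the same shares were 91.3% and 85.6%.

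In gene bodies the peaks were spread along the gene. Of 1756 with a strand, 25.4% lay in the first of 5 equal parts of the gene and 16.0% in the last, against 31.5% and 14.4% of 1793 shared peaks. The genes that held them had a median length of 97.6 kb, and those with shared peaks 59.1 kb. Outside protein-coding genes, 1669 of 2392 peaks (69.8%) touched no annotated gene at all and 482 (20.2%) a long noncoding RNA gene. The median distance to the nearest protein-coding gene was 73709 bp, against 25455 bp for shared peaks in the same class. No annotation of repeated sequence was used, so peaks in such sequence were not told apart within this class.

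Normoxia-only peaks overlapped each of the other lists less often than shared peaks did. A normoxia CTCF peak was overlapped by 754 normoxia-only peaks (13.8%, 12.9 to 14.7), against 61.4% of shared peaks and 43.6% of the whole normoxia list. The hypoxia CTCF list gave 775 (14.2%), against 60.1% and 42.9%. Normoxia H3K27ac was overlapped by 1170 (21.4%, 20.4 to 22.5), against 77.8% and 56.7%, and hypoxia H3K27ac by 1262 (23.1%), against 78.6% and 57.8%. WT Flag was overlapped by 646 (11.8%), against 68.8% and 47.5%, and PA Flag by 516 (9.45%), against 60.9% and 41.6%. Shared peaks have by definition a ZHX2 peak in hypoxia, the condition of both Flag lists.

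Gene ends had the highest overlap. There, 34.9% of normoxia-only peaks overlapped normoxia CTCF, 48.3% normoxia H3K27ac and 41.0% WT Flag. In gene bodies these shares were 11.3%, 22.3% and 9.06%, and outside genes 9.03%, 11.5% and 4.60%. Shared peaks at gene ends reached 72.3%, 86.9% and 81.7%, so the gap between normoxia-only and shared peaks was also present within the gene-end class.

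**Figure D2:**
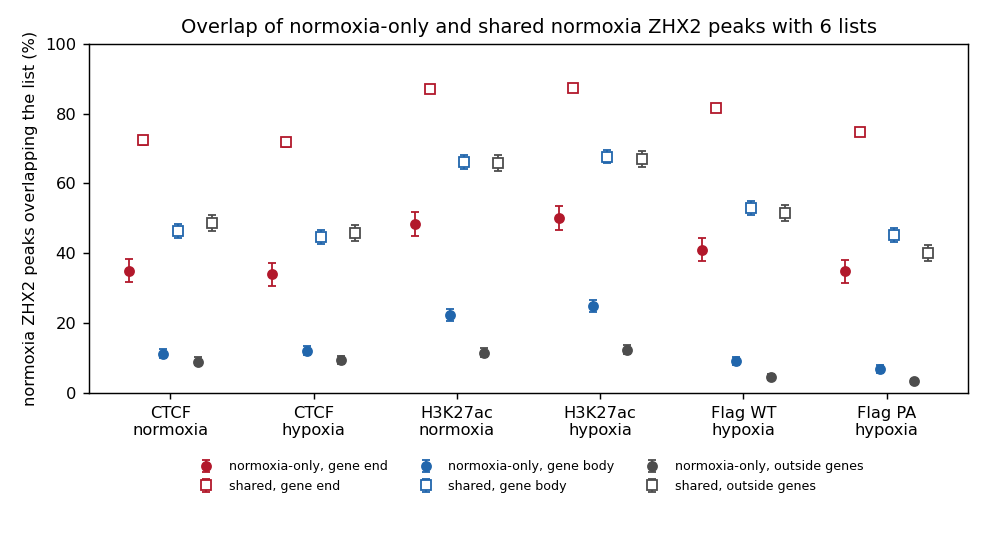
Percent of normoxia ZHX2 peaks (y axis) that overlap each of the 6 other lists (x axis) by at least 1 bp, for normoxia-only peaks (filled circles) and shared peaks (open squares) in 3 position classes; bars are 95% Wilson intervals. In every list and class the filled circle is below the open square of its colour, for example 34.9% against 72.3% for normoxia CTCF at gene ends.

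The gap between normoxia-only and shared peaks was present at low and at high scores. When the normoxia list was cut into 3 equal groups by score, in the lowest group 13.2% of normoxia-only and 62.0% of shared peaks overlapped normoxia CTCF. For normoxia H3K27ac the shares were 21.2% and 83.5%, and for WT Flag 11.4% and 69.7%. In the highest group they were 17.1% and 61.2% for normoxia CTCF, 25.1% and 72.4% for normoxia H3K27ac, and 13.1% and 68.8% for WT Flag.

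CTCF and H3K27ac at these sites were mostly listed in both conditions or in neither. Of the normoxia-only peaks, 627 overlapped CTCF in both conditions, 127 in normoxia alone, 148 in hypoxia alone and 4560 in neither. For H3K27ac the numbers were 1094, 76, 168 and 4124. A CTCF peak in normoxia alone was thus present at 2.33% of the sites and an H3K27ac peak in normoxia alone at 1.39%. Among shared ZHX2 peaks, 5.77% overlapped CTCF in normoxia alone and 1.21% H3K27ac in normoxia alone. These shares are over all peaks, and fewer normoxia-only peaks held either mark. Of peaks on normoxia CTCF, 127 of 754 normoxia-only and 526 of 5599 shared ones had no hypoxia CTCF. For H3K27ac it was 76 of 1170 and 110 of 7094, so both parts were larger at normoxia-only peaks. Of the Flag lists, 480 normoxia-only peaks overlapped both, 166 WT alone, 36 PA alone and 4780 neither.

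The 752 normoxia CTCF peaks at normoxia-only sites had a median authors' fold of 26.4 within their list, against 16.6 for those at shared sites and 19.0 over the whole list. In hypoxia the 776 coinciding CTCF peaks had 18.7, against 11.3 at shared sites and 19.0 over the list. The 1103 normoxia H3K27ac peaks at normoxia-only sites had a median fold of 12.8, against 15.4 at shared sites and 5.09 over the list, and a median width of 3300 bp. ZHX2 and CTCF summits lay a median of 149.5 bp apart at the 754 overlapping normoxia-only peaks, 38.5% of them within 100 bp, and 177 bp apart at shared peaks.

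Most of the strongest normoxia-only peaks lay on 2 kinds of sequence, a pattern noticed after the values were seen. Of the 34 with a fold of 10 or more, 20 (58.8%, 42.2 to 73.6) lay on a pseudogene, 8 on an immunoglobulin or T cell receptor segment, and the other 6 at or in a protein-coding gene. A pseudogene here is an entry of that type in the gene table, and for 17 of these 20 the symbol names a parent gene. The share on pseudogenes was 28.2% at a fold of 5 to 10, 10.0% at 4 to 5, 4.24% at 3 to 4 and 4.52% below 3. Over all normoxia-only peaks it was 319 of 5462 (5.84%, 5.25 to 6.49). Among shared peaks with a fold of 10 or more it was 7 of 247 (2.83%), and over all shared peaks 2.92%.

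**Figure D3:**
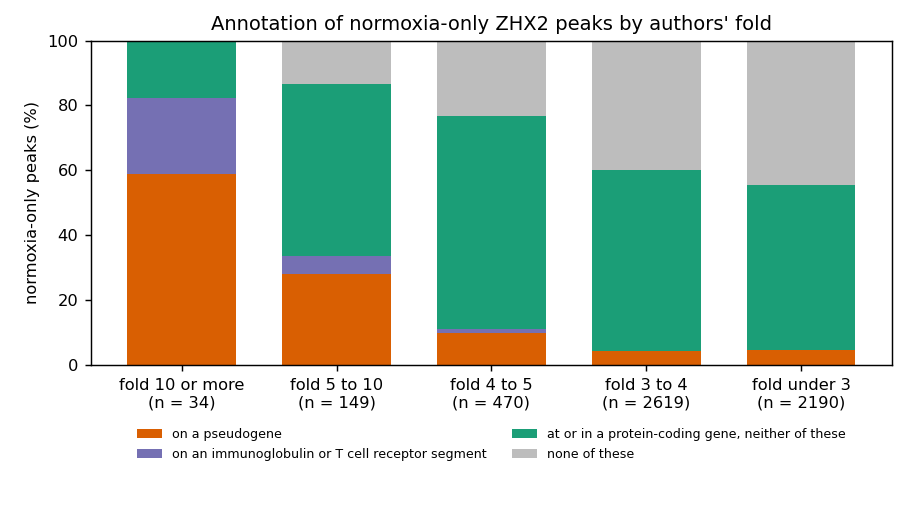
Percent of normoxia-only ZHX2 peaks (y axis) by what they lie on, in 5 bands of the authors' fold (x axis, number of peaks in brackets). Pseudogenes and receptor segments together fill most of the bar at a fold of 10 or more (20 and 8 of 34 peaks) and little of the bars below a fold of 4.

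The pseudogene peaks with the highest fold lay on RPL13AP5 (24.5), GAPDHP1 (23.8), PTMAP9 (23.03), HNRNPA1P10 (22.1) and RPL23AP42 (20.7). Their symbols name copies of genes for a ribosomal protein, the glycolytic enzyme GAPDH, prothymosin alpha, a nuclear RNA-binding protein and another ribosomal protein. The peak on RPL13AP5 spans 96750311 to 96750841 of chromosome 10, inside the 96750266 to 96750923 of the pseudogene, and lay 79798 bp from the nearest hypoxia ZHX2 peak. Of the peaks in gene bodies, the highest fold was at GAREM1, where the peak lay on HNRNPA1P7 (18.8). Apart from NCL, the next ones in DTWD2 (16.6), PLEKHA7 (15.2), CCSER1 (15.0), LRRC28 (13.2), GOLGA3 (13.1) and CHCHD3 (12.9) also lay on pseudogenes, PTMAP2, RPL36AP37, TMSB4XP8, HSP90B2P, RPS11P5 and LOC729998. No source used here says how reads that fit both a gene and its copies were placed, so the position of such peaks, and of peaks in families of like sequence such as the receptor segments, is uncertain.

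Each of the 20 pseudogene peaks with a fold of 10 or more overlapped a CTCF peak and an H3K27ac peak in hypoxia, while 7 overlapped normoxia CTCF and 14 normoxia H3K27ac. Over all 319 pseudogene peaks, 33.2% (28.3 to 38.6) overlapped hypoxia CTCF and 18.5% (14.6 to 23.1) normoxia CTCF. For H3K27ac the shares were 39.8% in hypoxia and 26.3% in normoxia. At the 58 peaks on ribosomal protein pseudogenes, 55.2% overlapped hypoxia CTCF and 17.2% normoxia CTCF, 60.3% hypoxia H3K27ac and 31.0% normoxia H3K27ac, and 25.9% PA Flag and 1.72% WT Flag. At the 20 pseudogene peaks with a fold of 10 or more, the hypoxia CTCF peaks were low in their own list. The hypoxia CTCF fold was 3.84 at RPL13AP5, 5.48 at GAPDHP1 and 11.1 at PTMAP9, where the median of that list was 19.0. Over the 5119 peaks on neither pseudogenes nor segments, most of them of low fold, 13.0% overlapped hypoxia CTCF and 13.5% normoxia CTCF. Gene-end peaks of some gene lists were also on hypoxia CTCF more often than on normoxia CTCF. It was 8 against 5 of 11 at abundantly transcribed genes and 5 against 2 of 8 at ribosomal protein genes. At endoplasmic reticulum chaperone genes it was 4 against 2 of 4. Over all 807 gene-end normoxia-only peaks it was 274 on hypoxia CTCF against 282 on normoxia CTCF. Shared peaks on pseudogenes overlapped normoxia CTCF in 60.5% and hypoxia CTCF in 57.9% of cases.

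Immunoglobulin and T cell receptor segments held 24 normoxia-only peaks, 15 on immunoglobulin and 9 on T cell receptor segments, and no shared peak. Every normoxia ZHX2 peak within 1 kb of such a segment was therefore normoxia-only. The hypoxia list had 6 within 1 kb, 2 of them inside a segment. Of 568 such segments, 31 (5.46%) had a normoxia-only peak within 1 kb. Over all annotated genes, 6.49% had one at an end or inside. That share counts the whole length of each gene, so it is not a like background for these segments. The highest fold of all normoxia-only peaks was 154.8, on IGHV2-26, a heavy chain variable segment, at 106301396 to 106301739 of chromosome 14. IGKC, the kappa constant region, had 63.1, IGHG1, a heavy chain constant region, had 60.3 and 43.4 in 2 peaks, and IGHM, the constant region of IgM, had 24.1, 13.3 and 5.24 in 3 peaks. On T cell receptor beta segments the highest were 20.4 at TRBD1 and 14.7 at TRBC2. Of the 24, 0 overlapped normoxia H3K27ac, WT Flag or PA Flag, 3 overlapped normoxia CTCF and 4 hypoxia CTCF. These genes are known for rearrangement and expression in lymphocytes, and of the 4 immune markers CD3E alone had an H3K27ac peak, in both conditions; neither the part of other cell types nor the origin of the reads in these peaks was tested.

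Of the 6 peaks with a fold of 10 or more on neither kind of sequence, 5 lay inside protein-coding genes and 1 at the end of one. NCL, which encodes the nucleolar protein nucleolin, held 2 with folds of 16.3 and 11.4, and B2M, the light chain of class I histocompatibility molecules, 1 with 12.5. EEF2, the translation elongation factor, had 11.4, and HLA-B, a class I heavy chain, 10.9. The sixth was the peak at the stop of GAPDH, with 12.5 at 6537599 to 6538294 of chromosome 12. The GAPDH peak overlapped all 6 other lists and lay 2594 bp from a hypoxia ZHX2 peak. None of the other 5 overlapped a Flag peak. EEF2 held 2 more normoxia-only peaks, with folds of 7.64 and 3.28.

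Strong gene-end peaks fell into genes with and without active chromatin. After GAPDH came CD74, the invariant chain of class II antigen presentation (9.71), TENM2, a synaptic adhesion protein (7.74), ACTB, beta-actin (7.55), HSPB8, a small heat shock protein (6.88), and CALR, the chaperone calreticulin (6.79). The HSPB8 peak lay on the pseudogene PDAP1P1. The ACTB, CALR and TPT1 (6.19) peaks overlapped hypoxia and normoxia H3K27ac and both Flag lists, with hypoxia ZHX2 peaks 1096, 1072 and 377 bp away. The peaks at CD74, FOXE1 (a forkhead factor of thyroid development, 6.43), LRRC4 (6.43) and ZNF865 (5.58) overlapped none of the 6 lists. The nearest hypoxia ZHX2 peak was 43855 bp from CD74, 50288 bp from FOXE1, 5302 bp from ZNF865 and 51 bp from LRRC4. TENM2 overlapped H3K27ac in both conditions alone, and RELN (5.95) CTCF in both conditions alone. TMSB4X (5.70) and SATB1, a chromatin organiser (5.66), had H3K27ac in both conditions and no Flag. The peak shared by NHLRC4 and PIGQ (6.33) overlapped all 6 lists, and HNRNPA1L3 (6.19), 903915 bp from any hypoxia ZHX2 peak, overlapped CTCF and H3K27ac in both conditions.

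Of the normoxia-only peaks on WT Flag peaks, the 5 with the highest fold were at GAPDH (12.5), EPPK1 (7.81), EEF2 (7.64), ACTB (7.55) and PKM (7.48). All but EPPK1 also overlapped PA Flag and H3K27ac in both conditions. Among peaks overlapping both CTCF and H3K27ac in normoxia, the 5 highest lay on GAPDHP1 (23.8), RPL23AP42 (20.7), PTMAP2 in DTWD2 (16.6), NCL (16.3) and HSP90AB3P (14.4). Thus 4 of these 5 were pseudogene peaks.

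Gene by gene, 879 of 19974 protein-coding genes (4.40%) had a normoxia-only peak at an end, and 2539 (12.7%) at an end or inside. Of the latter, 2015 had 1 such peak and 29 had 5 or more. GSE1, a coregulator gene, had the most with 13, but these were 13 of its 68 normoxia peaks, a lower share than the 37.4% of the whole list. MED13L, a Mediator kinase-module subunit, followed with 8 of 14. CACNA1H, CHLSN, EHMT1, RALYL and TBL1XR1 had 7 each. Per Mb of gene, GSE1 held 25.7 normoxia-only peaks and CACNA1H 101.9. Within GSE1 8 of the 13 overlapped normoxia H3K27ac and 1 a WT Flag peak, and the gene also held 91 hypoxia ZHX2 peaks. The 5 genes with 7 each all held more normoxia than hypoxia peaks, from 8 and 2 in RALYL to 16 and 13 in CHLSN. They were picked by their number of normoxia-only peaks, which favours such an excess. MED13L, picked in the same way, held 14 normoxia and 24 hypoxia peaks. In GSE1 the folds ran from 2.07 to 3.25 and in CACNA1H, a calcium channel, from 2.47 to 4.44, so these genes held many weak peaks.

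Gene lists were read against the 4.40% of all protein-coding genes with a normoxia-only peak at an end. This share takes no account of how often the genes of a list had shared peaks. All gene ends held 807 normoxia-only and 5118 shared peaks. Abundantly transcribed genes had 11 and 32, endoplasmic reticulum chaperone genes 4 and 14, and HOX genes 7 and 21. Developmental factors had 27 and 92, luminal genes 3 and 9, antigen presentation genes 3 and 8, and zinc finger genes 17 and 130. How many of all 879 genes also had a hypoxia ZHX2 peak at an end is not given here, so such counts below have no background. Among genes listed as abundantly transcribed, with no RNA measured here, 10 of 36 (27.8%) had a normoxia-only peak at an end. A shared peak lay there at 25. The highest normoxia-only folds were at GAPDH, ACTB, TPT1 and the glycolytic enzyme gene TPI1 (5.10). The 11 peaks at these 10 genes had a median fold of 4.17, and all 11 overlapped H3K27ac in both conditions and PA Flag, 10 of them WT Flag. Of the 10 genes, 9 also had a hypoxia ZHX2 peak at an end, so the gene as a whole kept a call in hypoxia. Endoplasmic reticulum chaperones and the unfolded protein response had 4 of 22 (18.2%): CALR, HSPA5 (4.98), the stress transcription factor ATF4 (3.05) and the disulfide isomerase PDIA4 (2.98). All 4 overlapped both H3K27ac lists and both Flag lists.

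Cytosolic ribosomal protein genes had 8 of 85 (9.41%), among them RPS7 (5.04), RPL11 (4.13), RPL36AL (4.08) and RPLP0 (3.26). Of the 8 peaks, 7 overlapped H3K27ac in normoxia, 7 in hypoxia and 7 each Flag list. A shared peak lay at an end of 43 of the 85 genes. Their ends had 8 normoxia-only and 51 shared peaks, where all gene ends had 807 and 5118. Luminal identity genes had 3 of 20 (15.0%), the oestrogen-induced GREB1 (3.28) and the keratins KRT8 (2.39) and KRT19 (2.23). Each had H3K27ac in both conditions and a hypoxia ZHX2 peak at the gene. The KRT8 peak overlapped the gene KRT18 and lay within 1 kb of the start of KRT8. Antigen presentation genes had 3 of 17 (17.6%), CD74, HLA-F (4.21) and HLA-E (3.98), of which HLA-E alone overlapped H3K27ac. Heat shock genes had 2 of 16 (HSPB8 and HSPA8), NF-kappaB pathway genes 2 of 20 (ICAM1 and NFKB2) and histone genes 4 of 76. With so few members these shares have wide intervals, and the lists overlap, for example in HSPA8.

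Hypoxia-induced genes had 1 of 36 (2.78%), DDIT4, an inhibitor of mTORC1 induced by stress. Its peak lay at the stop (4.49), overlapped both Flag lists and both H3K27ac lists, and was 1543 bp from a hypoxia ZHX2 peak. Genes of oxygen sensing and the ZHX family had 0 of 13 and genes of chromatin looping 0 of 17, while 7 and 12 of them had a shared peak.

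Peaks at HOX and other developmental genes mostly lacked H3K27ac. Those lacking it were a small part of the 393 of 807 gene-end peaks without H3K27ac in either condition. HOX genes had 7 of 39 (17.9%): HOXA2, HOXA3, HOXA5, HOXA9, HOXB9, HOXC5 and HOXD8. Of the 7 genes, 6 had no hypoxia ZHX2 peak at an end, with no share over all genes to set beside it. Of the 7 peaks, 0 overlapped CTCF in either condition or normoxia H3K27ac. A shared peak lay at an end of 20 of the 39. The highest fold was at HOXD8 (4.73), then HOXA5 (3.51), HOXA9 (3.46) and HOXA3 (3.12). Developmental transcription factor families had 24 of 175 (13.7%), with FOXE1, PAX7 (4.73), FOXC2 (4.15) and IRX4 (4.13) the highest. Of these 24 genes, 14 also had a hypoxia ZHX2 peak at an end, and 67 of the 175 had a shared peak. Of the 27 normoxia-only peaks, 4 overlapped normoxia H3K27ac and 3 normoxia CTCF. These factors pattern the embryo, and the peaks at them differed in this from those at abundantly transcribed genes, all 11 of which overlapped H3K27ac.

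Clustered protocadherins, cell-surface proteins whose promoter choice uses CTCF, had 23 of 53 genes (43.4%), but these came from 3 peaks. One peak, at 141512577 to 141512781 of chromosome 5, lay at the shared end of 22 gamma genes, and the other 2 were at PCDHB6. Zinc finger genes had 16 of 509 (3.14%), keratins 4 of 55 (7.27%) and olfactory receptors 2 of 392 (0.510%). Transfer RNA genes had a normoxia-only peak within 1 kb at 26 of 423 (6.15%) and a shared peak at 108, and small nuclear RNA genes had 0 of 41 and 25. Over all annotated genes, 6.49% had a normoxia-only peak at an end or inside. As it counts the whole length of each gene, it is not a like background for transfer RNA genes.

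Chromosomes differed in how much of the normoxia list was normoxia-only. The share ran from 19.9% on X (33 of 166 peaks) to 51.4% on chromosome 8 (409 of 795), with 47.7% on chromosome 5 and 44.4% on chromosome 3. Per Mb there were 0.211 normoxia-only peaks on X and 3.65 on chromosome 19, and 0.852 and 9.09 shared peaks. After X, the lowest were chromosomes 2, 13, 18 and 4, with 0.471 to 0.547 normoxia-only peaks per Mb. These chromosomes were also low in shared peaks, with 1.13 to 1.32 per Mb. Lengths are the highest coordinate seen in the lists or gene table, and chromosome copy number was not taken into account. Within 5 Mb of a chromosome end lay 18.0% of normoxia-only, 21.9% of shared and 16.6% of hypoxia peaks. The normoxia-only peaks stood apart from each other more often than the shared ones, with 16.9% having another of the set within 10 kb, against 38.0%; the shared set is larger.

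**Figure D4:**
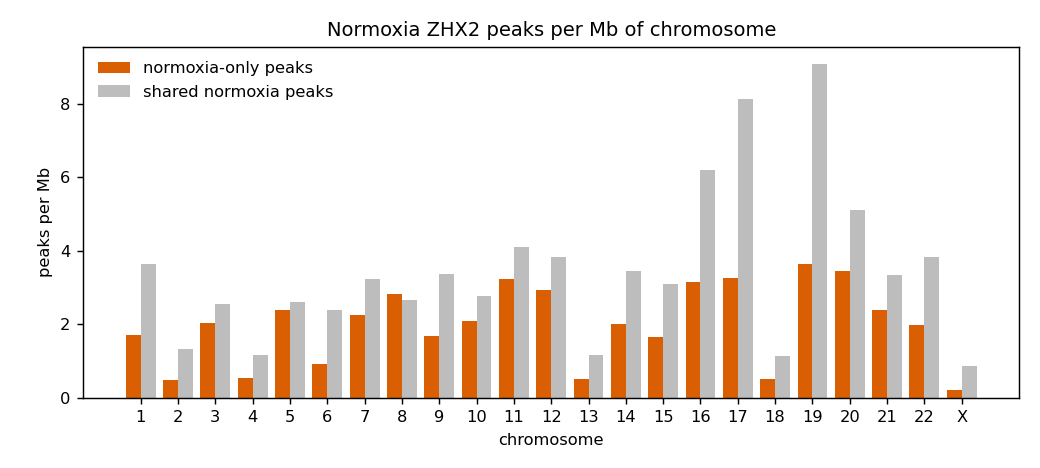
Peaks per Mb (y axis) on each chromosome (x axis) for normoxia-only ZHX2 peaks (orange) and shared normoxia ZHX2 peaks (grey). Chromosome 8 is the one where the orange bar is higher (51.4% of its peaks are normoxia-only), and X has the lowest bars.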

How the data were processed

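The 28 samples were grouped by title and antibody label; 16 were immunoprecipitated (8 groups of 2) and 12 had no antibody, among them 4 titled Flag. The submitters' processing notes name cutadapt, Bowtie2, MACS2 and GRCh38 (hg38); tool versions, the use of inputs and any pooling of samples are not given in the sources used here. The authors deposited 1 peak list per group. ZHX2 and CTCF peaks are narrow with a summit, H3K27ac peaks broad, and Flag lists have no value beside the coordinates. The authors deposited a score, a fold ratio over background and a −log10 q per peak (the −log10 p was not used), and the score is 10 times the −log10 q without its decimals. Both ZHX2 lists start at a −log10 q of 1.30.

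Peaks on chromosomes 1 to 22 and X were compared by an overlap of at least 1 bp in Python 3.11.15 with pandas 2.3.3, numpy 2.4.6 and scipy 1.17.1 (95% Wilson intervals); matplotlib 3.10.9 drew the figures. Overlap and class assignment were tested on simulated data. Genes came from a RefSeq table of GRCh38.p14 without exons. Peaks were named by the authors' fold: the 15 highest at gene ends, 8 in gene bodies and 5 outside, 5 each on CTCF with H3K27ac and on WT Flag, the genes with most peaks, and up to 4 for each of 21 gene lists. The regions and lists were chosen with earlier results of these data known. Alternatives covered overlap, summits, gaps, −log10 q, score, gene window, annotation and contigs.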

Additional observations from a re-analysis of the deposited data

How the results depend on the processing

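No paired analysis was possible because each group has 1 peak list and no values per sample; leaving out a replicate was not run for the same reason. The 5462 normoxia-only peaks became 5900 with an overlap of 50% of the shorter peak, 7121 with summits within 250 bp, 4531 with no hypoxia peak within 1 kb and 5478 with all contigs. With a −log10 q of at least 5 they were 2423 (26.5% of the list), and in the upper 50% by score 1576 (21.6%). Of the 77 named peaks, 59 had no hypoxia peak within 1 kb and 62 passed the −log10 q limit.

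With a gene-end window of 3 kb, 24.5% were at gene ends, 34.2% in gene bodies and 41.3% outside. With all annotated genes the shares were 24.95%, 46.3% and 28.8%. With a −log10 q of at least 5, 17.0% were at gene ends and 41.4% outside. Without peaks on pseudogenes and receptor segments, an alternative chosen after seeing the data, 41.9% were outside.

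With an overlap of 50% of the shorter peak, the shares on the lists were 11.6% (normoxia CTCF), 12.3% (hypoxia CTCF), 19.96% (normoxia H3K27ac), 21.7% (hypoxia H3K27ac), 10.4% (WT Flag) and 8.59% (PA Flag). With no hypoxia peak within 1 kb they were 10.9%, 11.5%, 14.2%, 15.8%, 6.38% and 4.72%. The −log10 q limit gave 16.3% for hypoxia CTCF, 25.1% for hypoxia H3K27ac and 10.3% for PA Flag, and leaving out pseudogenes and segments 13.0% for hypoxia CTCF. Cores of 200 bp stayed within the intervals. For shared peaks the lowest share over overlap rules, cores and the −log10 q limit was 53.5%, for hypoxia CTCF. Peak depth is unknown, and a missing call is not absence.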
